A study of Mus musculus with 18 samples.

Results

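The genotype by exendin-4 interaction at 6 h asks, gene by gene, whether the early change after exendin-4 differs between mice that lack the GLP-1 receptor and mice that have it. It rests on 12 of the 18 arrays of the study, chosen by sample title, in 4 groups of 3 individual male CD-1 mice: GLP-1R-/- mice 6 h after exendin-4 (arrays 13, 14 and 15), untreated GLP-1R-/- mice (arrays 4, 5 and 6), wild-type mice 6 h after exendin-4 (arrays 7, 8 and 9) and untreated wild-type mice (arrays 1, 2 and 19). Each array was hybridised with total RNA of Brunner's glands cut out by laser capture microdissection. The other 6 arrays, 3 of each genotype at 18 h after exendin-4, enter the filter on dim genes, the shared estimate of spread and the look at the later time. The sources used here give neither the dose and route of exendin-4 nor the design of the GLP-1R-/- allele. The controls were untreated, with no vehicle or time-matched group named, so within a genotype the agonist, its administration and the time of collection cannot be told apart.

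Brunner's glands lie in the submucosa of the duodenum and secrete mucus and bicarbonate that protect the duodenal wall from gastric acid. The GLP-1 receptor is a receptor of the cell surface that couples to the stimulatory G protein Gs, raises cyclic AMP and acts through protein kinase A and Epac on secretion and on transcription. Exendin-4 is a peptide first found in the venom of the Gila monster that activates this receptor and resists the protease that quickly breaks down GLP-1. A transcript that needs the receptor for its early response would change in wild-type mice and not, or less, in mice without the receptor.

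Signals are RMA values in log2 units, in which a difference of 1 is a doubling of signal. The interaction is the wild-type change (6 h minus untreated) minus the GLP-1R-/- change (6 h minus untreated), so a positive value means a more positive change in wild-type mice. Of 17204 genes in the table, 12775 passed the filter on dim genes and were tested with limma, and a gene was called at a Benjamini-Hochberg adjusted p under 0.05. The rows carry Ensembl identifiers, and the reference tables paired 0 of them with a symbol. No gene is therefore named, and the 2 largest called differences in each direction are given by identifier. The markers of Brunner's glands and of neighbouring cell types, and the transcript of the receptor as a check of the genotype, were not analysed here. In RNA from a tissue piece, fewer cells of a type and less RNA per cell cannot be told apart.

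Array 13, from a GLP-1R-/- mouse at 6 h, stood apart. Across the tested genes it correlated with the others between 0.911 and 0.945, while the other 17 arrays correlated with each other between 0.951 and 0.993. Its values were also less spread over the genes of the table, with an SD of 1.84 against 1.95 to 2.06 in the others. The main counts of called genes and the 6 h interactions of the genes given by identifier are therefore given with it and without it. Other results use all arrays unless stated otherwise.

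In wild-type glands 6 h after exendin-4, 48 genes had moved by an amount that differed from their change in GLP-1R-/- glands, which was 0.376% of the genes tested. The wild-type change was the more positive for 30 of them (0.235% of the genes tested), with a median difference of 1.25 on the log2 scale (range 0.80 to 3.38), and the more negative for 18 (0.141%), with a median of -1.15 (range -1.57 to -0.84). The median over all tested genes was -0.021. The positive differences reached further: 6 of the 30 were at least 2 on the log2 scale, 18 lay between 1 and 2 and 6 below 1. Of the 18 negative ones, 0 reached a size of 2, 16 lay between 1 and 2 and 2 were smaller than 1.

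The changes that make up these differences were lopsided. Among the 30 positive genes the GLP-1R-/- change had a median of -0.093 (range -0.75 to 0.49) and the wild-type change a median of 1.10 (range 0.46 to 3.87). Among the 18 negative genes the GLP-1R-/- change had a median of 0.22 (range -0.081 to 0.47) and the wild-type change a median of -0.91 (range -1.65 to -0.59). Over all tested genes the medians were 0.039 in GLP-1R-/- mice and 0.022 in wild-type mice. The GLP-1R-/- change was smaller than 25% of the wild-type change for 33 of the 48 genes and larger than 50% of it for 6. Since a gene is called on the difference between the 2 changes, these medians describe the called genes and test nothing.

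**Figure D1:**
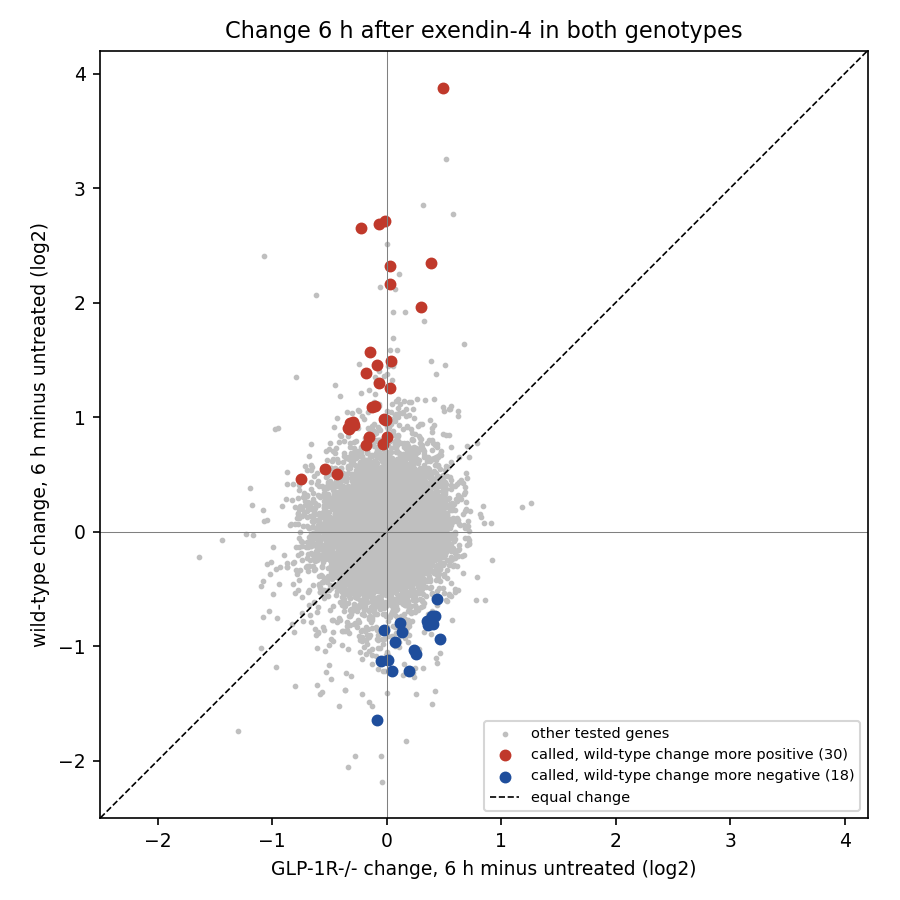
Each point is a tested gene, with its change in GLP-1R-/- mice (6 h minus untreated, log2) on the x axis and its change in wild-type mice on the y axis, and the dashed line marks equal changes. The 48 called genes, 30 in red and 18 in blue, lie far from the line mostly along the wild-type axis: their GLP-1R-/- changes run from -0.75 to 0.49 and their wild-type changes from -1.65 to 3.87.

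ENSMUSG00000024810 had the largest called difference. In GLP-1R-/- mice at 6 h its signal was 8.06, 7.25 and 7.54 in arrays 13, 14 and 15, against 7.22, 7.03 and 7.13 in the untreated arrays 4, 5 and 6. In wild-type mice at 6 h it was 12.3, 12.6 and 12.9 in arrays 7, 8 and 9, against 9.33, 8.44 and 8.42 in the untreated arrays 1, 2 and 19. The 3 wild-type 6 h arrays were the highest of the 12, and the lowest of them was well above the highest of the other 9. Its change was 0.49 in GLP-1R-/- mice (SE 0.252, 95% confidence interval -0.039 to 1.02, limma adjusted p = 0.595) and 3.87 in wild-type mice (SE 0.252, limma adjusted p = 3.42e-07). The interaction was 3.38 (SE 0.356, 95% confidence interval 2.63 to 4.13, limma adjusted p = 0.000264), a 10.4-fold difference between the 2 changes. Array 13 was the highest GLP-1R-/- array, and without it the GLP-1R-/- change was 0.27 and the interaction 3.60 (SE 0.342, limma adjusted p = 9.95e-05).

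ENSMUSG00000022129 came next. Its signal in GLP-1R-/- mice was 5.86, 4.96 and 4.78 at 6 h, against 5.28, 5.37 and 5.61 untreated, in the same order of arrays. In wild-type mice it was 8.91, 8.66 and 8.72 at 6 h, against 5.98, 6.23 and 6.12 untreated. All 3 wild-type 6 h arrays were above the other 9. The GLP-1R-/- groups overlapped because array 13 lay above and arrays 14 and 15 below every untreated GLP-1R-/- array. The interaction was 2.87 (SE 0.357, limma adjusted p = 0.00118), or 7.33-fold, and 3.20 without array 13 (SE 0.291, limma adjusted p = 9.95e-05). The GLP-1R-/- change was -0.22 with array 13 and -0.55 without it, with limma adjusted p = 0.737 and 0.938.

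The most negative called difference belonged to ENSMUSG00000042766. Its signal in GLP-1R-/- mice was 7.38, 7.92 and 7.72 at 6 h, against 7.21, 7.97 and 8.09 untreated. In wild-type mice it was 6.22, 6.33 and 6.55 at 6 h, against 8.15, 7.98 and 7.91 untreated. The wild-type 6 h arrays were the lowest of the 12, and the 2 GLP-1R-/- groups overlapped. The change was -0.081 in GLP-1R-/- mice (SE 0.195, limma adjusted p = 0.881) and -1.65 in wild-type mice (SE 0.195, limma adjusted p = 0.000176). The interaction was -1.57 (SE 0.275, limma adjusted p = 0.0182), and -1.71 without array 13 (limma adjusted p = 0.0073). The call was lost without wild-type array 7 (adjusted p = 0.0503), without wild-type array 1 (0.0598) and in a fit to only the 4 groups (0.112), among adjusted p-values of 0.000703 to 0.112 over 21 alternatives.

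ENSMUSG00000029499 had the next most negative called difference. Its signal in GLP-1R-/- mice was 6.57, 7.41 and 7.003 at 6 h, against 6.78, 6.92 and 6.69 untreated. In wild-type mice it was 6.21, 6.28 and 6.06 at 6 h, against 7.17, 7.67 and 7.36 untreated. The wild-type 6 h arrays were again below the other 9, of which array 13 was the nearest. The change was 0.20 in GLP-1R-/- mice (SE 0.176, limma adjusted p = 0.671) and -1.22 in wild-type mice (SE 0.176, limma adjusted p = 0.00089). The interaction was -1.41 (SE 0.249, limma adjusted p = 0.0182), and -1.63 without array 13 (limma adjusted p = 0.00139). The call was lost without wild-type array 9 (adjusted p = 0.051), wild-type array 2 (0.052) or GLP-1R-/- array 4 (0.0622), and in a fit to only the 4 groups (0.112), among adjusted p-values of 0.000181 to 0.112 over 21 alternatives.

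**Figure D2:**
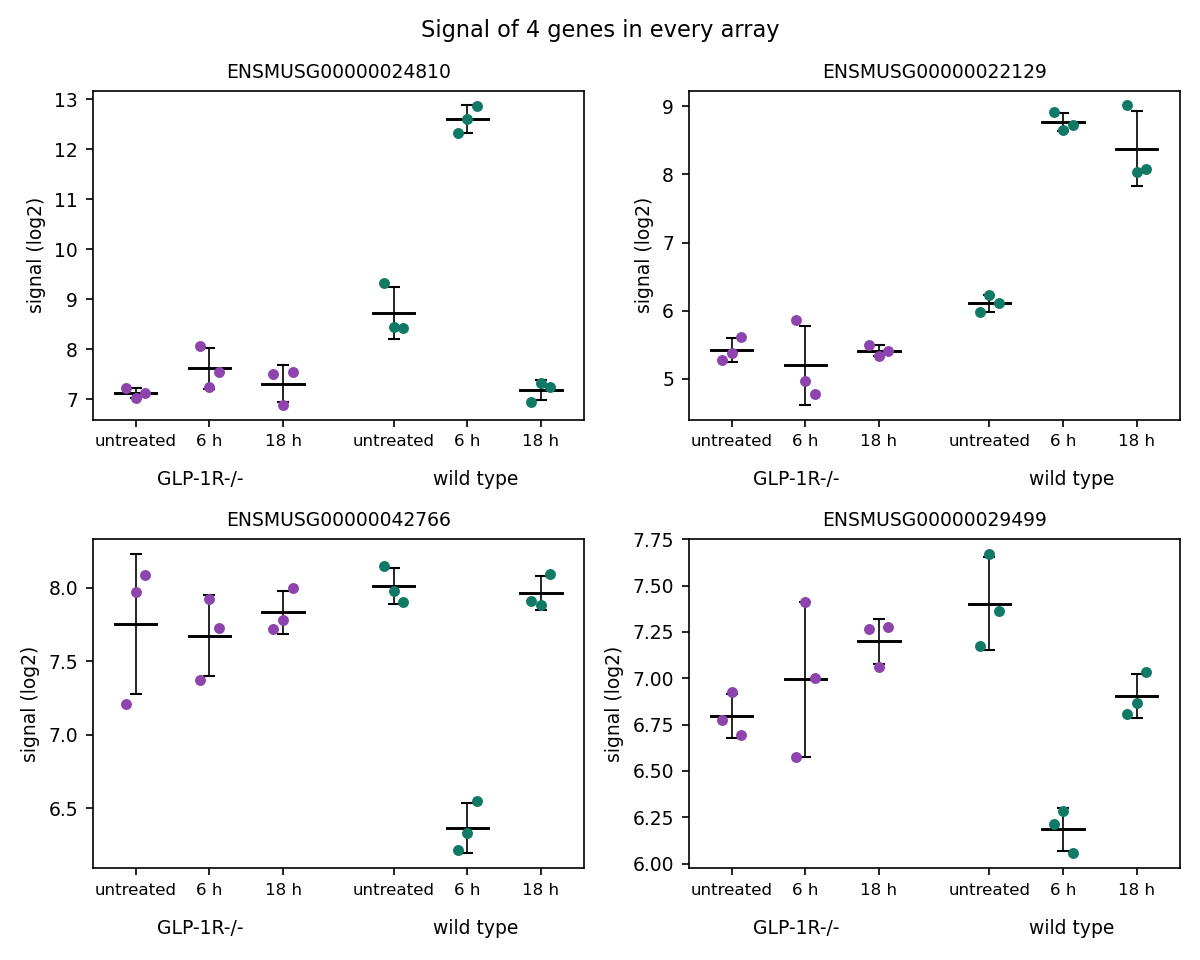
Signal (log2) of the 4 genes in every array, with GLP-1R-/- mice on the left and wild-type mice on the right of each panel, each untreated and at 6 h and 18 h after exendin-4. Points are arrays, the bar is the mean and the whiskers are the SD of 3 arrays, and the vertical axes do not start at 0. In each panel the wild-type 6 h arrays lie apart from the 9 arrays of the other 3 groups compared, and ENSMUSG00000022129 is still high in wild-type mice at 18 h.

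The same picture held for most of the called genes. For 43 of the 48, all 3 wild-type 6 h arrays lay outside the range of the 9 arrays of the other 3 groups, above it for 28 of the 30 positive genes and below it for 15 of the 18 negative ones. Among all tested genes this was so for 8.09%, 4.92% above and 3.17% below. For 42 of the 48 they also lay outside the range of all 15 other arrays, the 18 h arrays included (6.38% of all tested genes). The GLP-1R-/- 6 h arrays lay outside the range of their 9 others for 2 of the 48, the untreated GLP-1R-/- arrays for 3 and the untreated wild-type arrays for 3, where the shares of all tested genes were 1.64%, 1.06% and 1.6%. For 44 of the 48 the wild-type 6 h mean was the group mean farthest from the average of the other 3. Over all tested genes that mean was the farthest for 32.1%, and the GLP-1R-/- 6 h mean, which holds array 13, for 35.8%. The interaction test favours any gene with 1 group apart from the other 3, so these counts say which group it was and are no further test.

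**Figure D3:**
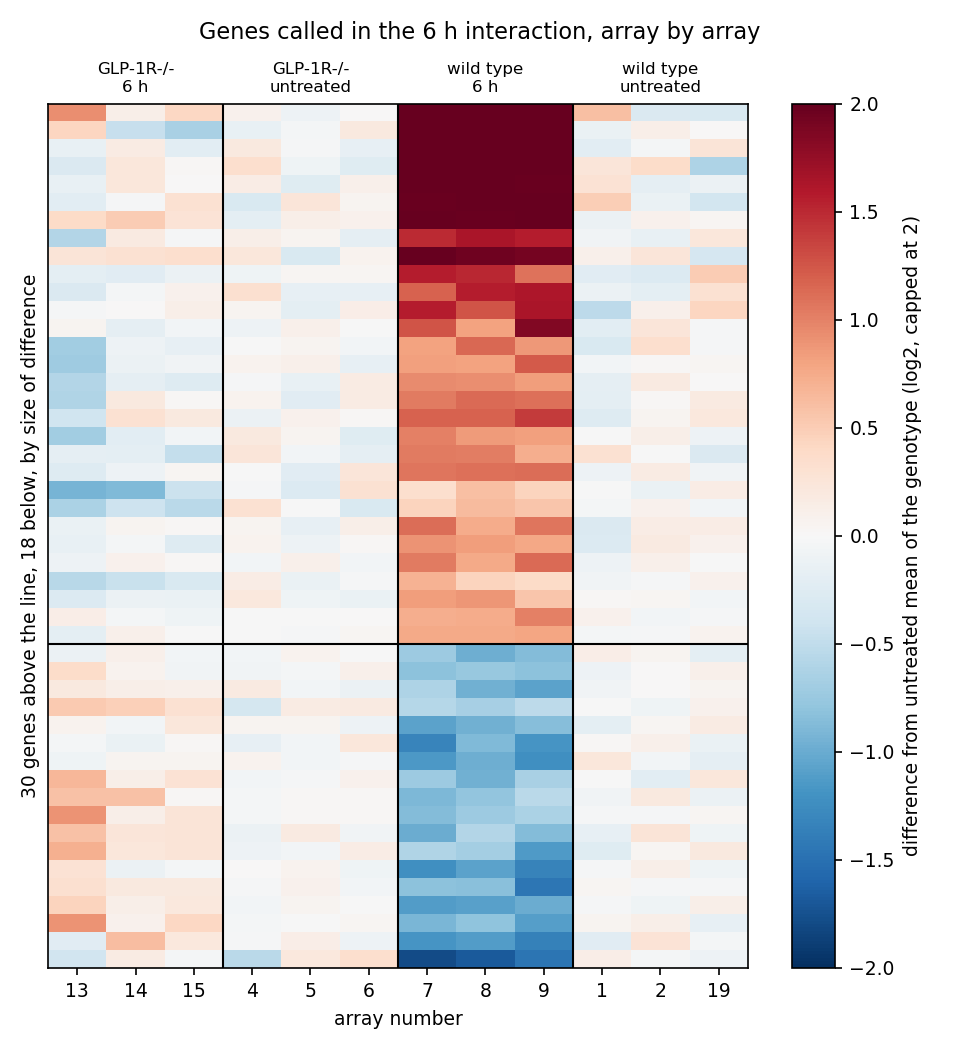
Rows are the 48 called genes, 30 with the more positive and 18 with the more negative wild-type change, ordered by the size of the difference, and columns are the 12 arrays. Colour is the difference (log2, capped at 2) from the untreated mean of the same genotype. The wild-type 6 h arrays 7, 8 and 9 carry almost all of the colour, and array 13 departs more from the untreated mean than arrays 14 and 15 do.

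The 3 wild-type 6 h arrays moved alike over the called genes, which is favoured by selecting genes on the difference and spread of these same arrays. Their median change from the untreated wild-type mean was 1.09, 1.12 and 1.13 over the 30 positive genes in arrays 7, 8 and 9, and -0.904, -0.92 and -1.03 over the 18 negative ones. In GLP-1R-/- mice at 6 h the median change from the untreated GLP-1R-/- mean was -0.205, -0.0424 and -0.0371 over the positive genes in arrays 13, 14 and 15, and 0.348, 0.114 and 0.202 over the negative ones. These GLP-1R-/- medians, of which those of array 13 were the farthest from 0, come from arrays that helped to select the genes, and selection on the difference favours values opposite to the wild type. Array 13 also differed the most over all tested genes, with a spread of changes (SD) of 0.627 against 0.239 and 0.237 in arrays 14 and 15.

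The GLP-1R-/- change had the opposite sign to the wild-type change for 37 of the 48 genes (77.1%, against 47.1% of all tested genes), which selection on the difference favours. Without array 13 this was so for 31 (64.6%, against 45.1% of all tested genes): for 16 of the 30 positive genes in place of 22, and for 15 of the 18 negative ones both times. No GLP-1R-/- change passed the test by itself: limma called 0 of the 12775 genes (0%) with array 13 and 0 without it. With all arrays, 1038 genes (8.13%) had an unadjusted p under 0.05. Of the 48 genes, 13 had an unadjusted p under 0.05 for the GLP-1R-/- change, a share raised by the selection on the difference. The wild-type change was called for 46 of the 48 and for 433 of all tested genes (3.39%), and that change is part of the interaction.

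Most genes that changed in wild-type mice were not shown to respond differently without the receptor. Of the 433, 387 missed the threshold in the interaction. The GLP-1R-/- change was smaller than 50% of the wild-type change for 358 of these 387. It had the wild-type sign for 250 (64.6%), where the signs were opposite for 47.1% of all tested genes. At an unadjusted p under 0.05 the interaction reached 305 of the 387 (78.8%, with the share of all tested genes not given here). It had the sign of the wild-type change for all 433. The genes were selected on a wild-type change that the interaction contains, so this direction and the count of 305 are in part built in. Selection for a large wild-type change also favours the count of 358. A difference carries the error of 4 group means, and its SE had a median of 0.240 over the tested genes.

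Size alone did not make a call. A difference of at least 1 in size was fitted for 240 genes, of which 40 were called and 200 were not. The SE had a median of 0.237 among the 40 called and 0.441 among the 200 not called. Of the called genes, 43 lay above the filter level of 4.79 on all 12 arrays. By their mean over the 12 arrays, 33 of the 48 were brighter than the median tested gene and 6 were among the brightest 10%.

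Leaving out array 13 raised the count to 109 genes (0.853% of those tested), 63 positive (0.493%) and 46 negative (0.36%). All 48 genes were among them. The differences of those 48 became smaller without it for 38 genes, with a median size of 1.10 against 1.22 with it, and the SE was smaller for 30 of the 48 (62.5%). Over all tested genes the SE was smaller without it for 9708 (76%), with a median of 0.206 without array 13 and 0.240 with it. The 61 added genes, 33 positive and 28 negative, had the same sign with array 13 as without it, and their difference was larger in size without it for 51. Their median size without it was 1.04 (range 0.59 to 2.78). With array 13 in the fit, their adjusted p lay between 0.0528 and 0.752, and 27 of the 61 were under 0.1. The wild-type change was called for 47 of them with array 13 and for 58 without it, where 6.89% of all tested genes were called in wild-type mice.

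**Figure D4:**
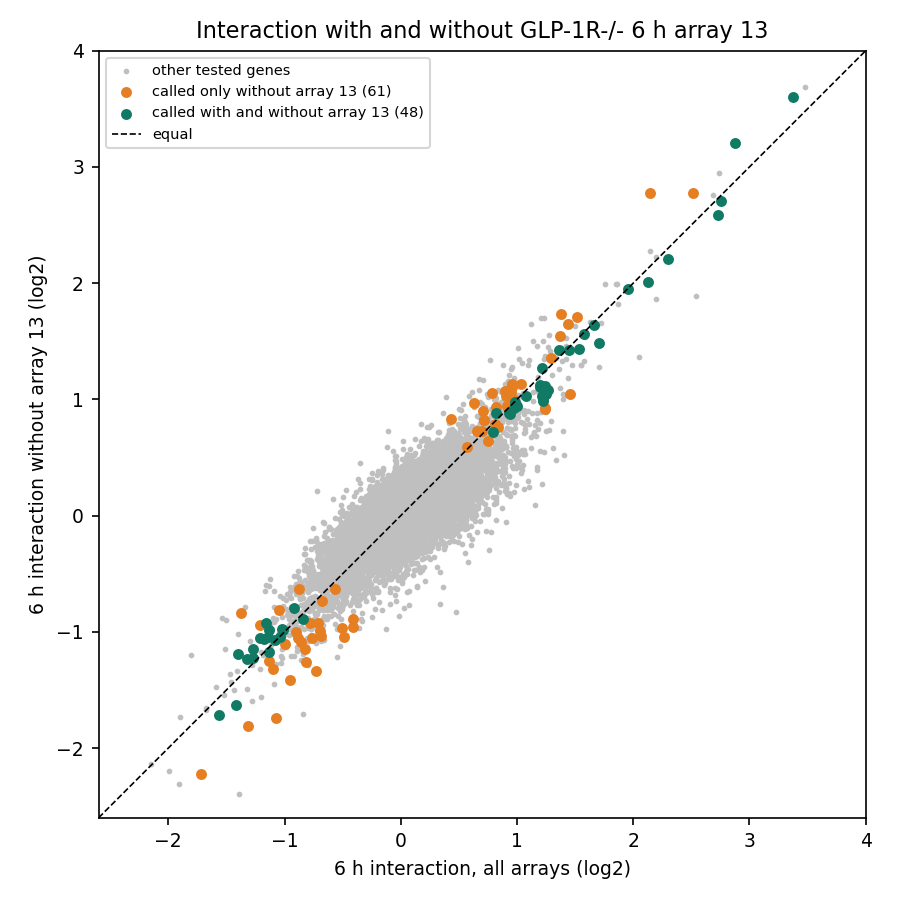
The 6 h interaction of each tested gene (log2, wild-type change minus GLP-1R-/- change) with all arrays on the x axis and without GLP-1R-/- array 13 on the y axis, with the dashed line marking equal values. The 48 genes in green were called both ways and lie close to the line, and the 61 in orange were called only without array 13, most of them farther from 0 on the y axis.

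The count also turned on other arrays. It was 18 without untreated wild-type array 1, 29 without untreated wild-type array 2, 30 without wild-type 6 h array 7, 27 without wild-type 6 h array 9 and 17 without untreated GLP-1R-/- array 4, and between 32 and 55 without any one of the other 6 arrays besides array 13. A fit restricted to the 4 groups called 12 genes, of which 11 were among the 48, and 39 without array 13, of which 20 were. Called with all arrays and in each of the 12 fits without 1 array were 15 genes, 11 positive and 4 negative. Under every alternative run, 10 of the 48 genes were called, 8 of them positive, with ENSMUSG00000024810 and ENSMUSG00000022129 among them.

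The interaction can be split into the difference between genotypes at 6 h less the difference between untreated mice. For the 30 positive genes, wild type minus GLP-1R-/- had a median of 1.15 at 6 h (range 0.61 to 4.98), against -0.047 in untreated mice. For the 18 negative genes it was -0.975 at 6 h (range -1.31 to -0.11), against 0.216 in untreated mice. The difference at 6 h was called for 45 of the 48 genes (6.07% of all tested genes), and for 44 without array 13 (6.16%). The untreated difference was called for 6 of the 48 (0.618% of all tested genes), and for 7 without array 13 (1.07%), and for 41 the 6 h difference was called and the untreated one was not. All 6 were lower in untreated GLP-1R-/- mice than in untreated wild-type mice. These comparisons share arrays with the interaction that selected the genes and describe them only.

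ENSMUSG00000024810 was among the 6. Its signal was lower in untreated GLP-1R-/- than in untreated wild-type mice, with a difference of -1.60 (GLP-1R-/- minus wild type, SE 0.252, limma adjusted p = 0.00677). Its difference at 6 h, wild type minus GLP-1R-/-, was 4.98 (SE 0.252, limma adjusted p = 3.1e-09) and therefore larger than the interaction. For ENSMUSG00000029499 the untreated difference, GLP-1R-/- minus wild type, was -0.60 (SE 0.176, limma adjusted p = 0.207, and 0.0465 without array 13). Its difference at 6 h, wild type minus GLP-1R-/-, was -0.81 (SE 0.176, limma adjusted p = 0.0104), so the wild type, higher before treatment, was the lower one at 6 h.

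The 6 h values were compared with those at 18 h to see how long the genotype difference lasted. The 18 h arrays are in no group mean of the 6 h interaction and enter it through the filter and the shared spread. Wild type minus GLP-1R-/- at 18 h had a median of -0.054 over the 30 positive genes (range -0.63 to 2.97) and 0.230 over the 18 negative ones (range -0.49 to 0.65), against -0.0073 over all tested genes. At that time 6 of the 48 genes differed between genotypes (12.5%, against 1.27% of all tested genes), and 8 without array 13 (against 3.34%). All 6 were lower in GLP-1R-/- mice, 4 of them in the direction of the 6 h interaction, and 2 also differed in untreated mice.

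The 6 h interaction itself differed from the 18 h interaction for 37 of the 48 genes (77.1%, against 1.54% of all tested genes, or 197 genes), and for 36 without array 13 (against 2.22%). Here the untreated arrays cancel, and the 6 h arrays that selected the genes stay in. The 37 were 24 positive and 13 negative genes, and all 37 had the larger difference at 6 h in the direction of the 6 h call.

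The 4 genes given by identifier differed in this respect. ENSMUSG00000024810 was 7.51, 6.89 and 7.54 in the GLP-1R-/- arrays 16, 17 and 18 and 6.95, 7.33 and 7.25 in the wild-type arrays 10, 11 and 12 at 18 h. The genotypes overlapped, with a difference of -0.14 (wild type minus GLP-1R-/-, SE 0.252, limma adjusted p = 0.925), and the 6 h interaction exceeded the 18 h one by 5.12 (SE 0.356, limma adjusted p = 9.73e-07). That value is larger than the 6 h interaction because the 18 h interaction was -1.74 (SE 0.356, limma adjusted p = 0.2). At 18 h the wild-type signal was below that of untreated wild-type mice, with a difference of -1.55 (18 h minus untreated, SE 0.252, limma adjusted p = 0.016). The limma adjusted p of that wild-type difference rose above 0.05 when array 1 (0.0648), array 10 (0.0638), array 11 (0.0542) or array 12 (0.0563) was left out, among values of 0.00444 to 0.0648 over 25 alternatives. ENSMUSG00000022129 was 5.49, 5.33 and 5.40 in the GLP-1R-/- arrays and 9.01, 8.04 and 8.08 in the wild-type arrays at 18 h. Those groups lay well apart, by 2.97 (wild type minus GLP-1R-/-, SE 0.252, limma adjusted p = 7.03e-06), and the 6 h and 18 h interactions differed by 0.60 (SE 0.357, 95% confidence interval -0.16 to 1.35, limma adjusted p = 0.453). Without array 13 they differed by 0.92 (SE 0.291, limma adjusted p = 0.117). ENSMUSG00000022129 was the 1 gene of the 48 also called in the interaction at 18 h (0.0235% of all tested genes), at 2.28 (SE 0.357, limma adjusted p = 0.031).

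ENSMUSG00000042766 was 7.72, 7.78 and 7.996 in the GLP-1R-/- arrays and 7.91, 7.88 and 8.10 in the wild-type arrays at 18 h. The genotypes overlapped there, and its 6 h interaction minus the 18 h one was -1.44 (SE 0.275, limma adjusted p = 0.0132). ENSMUSG00000029499 was 7.26, 7.06 and 7.27 in the GLP-1R-/- arrays and 6.81, 6.87 and 7.03 in the wild-type arrays at 18 h. The wild-type arrays were still the lower ones, with a difference of -0.30 (wild type minus GLP-1R-/-, SE 0.176, limma adjusted p = 0.569). The 6 h interaction of this gene differed from the 18 h one by -0.51 (SE 0.249, 95% confidence interval -1.04 to 0.011, limma adjusted p = 0.35). Without array 13 they differed by -0.73 (SE 0.207, limma adjusted p = 0.0792), which also missed the threshold.

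**Figure D5:**
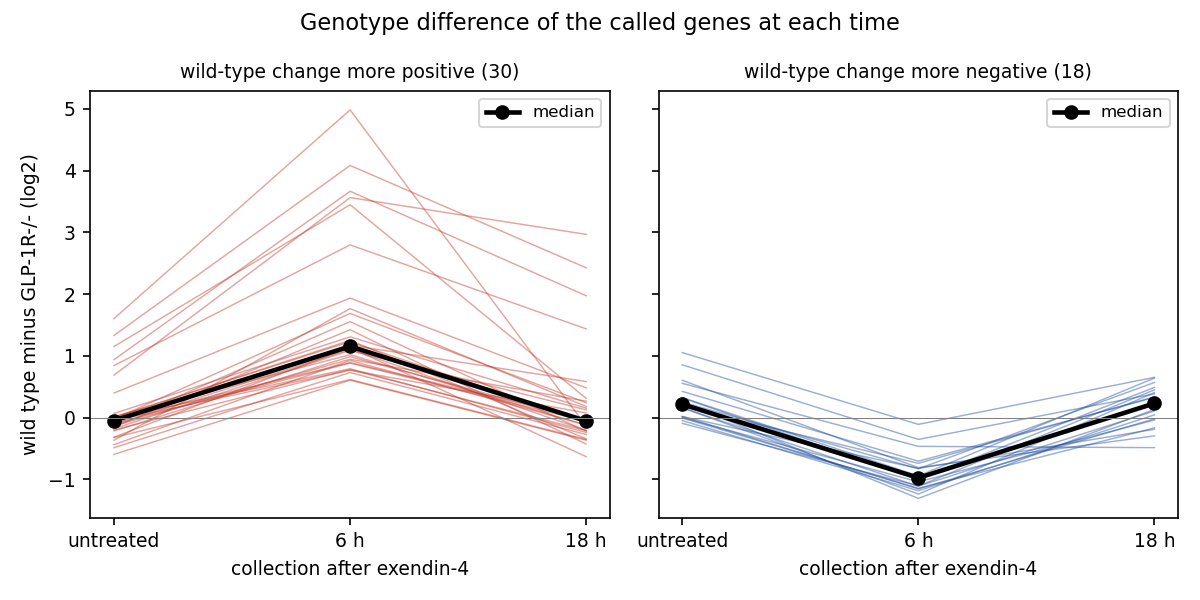
Each thin line is a called gene, with wild type minus GLP-1R-/- (log2) in untreated mice and at 6 h and 18 h after exendin-4, and the black line is the median. The left panel holds the 30 positive genes, whose median is 1.15 at 6 h and near 0 at the other times, and the right panel the 18 negative genes, whose median is -0.975 at 6 h.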

How the data were processed

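The authors deposited log2 values, 1 per Ensembl gene and array, computed with RMA according to the processing notes of the submitters. RMA corrects background, normalises arrays and summarises probes. It gives no detection call and compresses changes of dim genes. The sources used here name no RMA version, array model or genome build. Columns were matched to samples by accession, and 0 columns were left out.

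Genes were tested if 3 or more arrays of the 18 exceeded 4.79, which is the 30th percentile over the whole table. One mean per group was fitted to the 18 arrays (limma 3.58.1, R 4.3.3), with eBayes and two-sided tests, after tests on simulated data. The arrays are individual mice, with no batch given. Arrays give no read depth, and their number limits the precision. Alternatives were leaving out each array of the 4 groups, a fit to 4 groups, array weights, median centring, quantile normalization, other filters, and a trended or robust eBayes. For the 18 h genotype count and the 6 h against 18 h count, each 18 h array was also left out. In the 6 h interaction the 18 h arrays were left out only together.

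The members and lists were chosen with earlier results of these data known. Gene lists and markers chosen by symbol, and promoter sequences, were not analysed here, as identifiers could not be matched to symbols. The rule for named genes was reduced to the 2 largest called differences in each direction.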

Additional observations from a re-analysis of the deposited data

Results flagged for a closer look

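The genotype by exendin-4 interaction was set against itself at the 2 times. By a test of the difference itself, 197 genes had an interaction at 6 h that differed from that at 18 h (limma), and 284 without array 13. Of the genes given by identifier, ENSMUSG00000024810 differed by 5.12 on the log2 scale (6 h minus 18 h, limma adjusted p = 9.73e-07) and ENSMUSG00000042766 by -1.44 (limma adjusted p = 0.0132).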

How the results depend on the processing

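No paired analysis was possible because the arrays carry numbers that occur once in the whole series, so no number is shared between groups. Without 1 array at a time, the count of the 6 h interaction lay between 17 and 109, its share of positive calls (62.5% with all arrays, 50.7% with array weights, 75% and 53.8% in the fit to only the 4 groups with and without array 13) between 57.8% and 70.9%, the wild-type count between 176 and 880, the GLP-1R-/- count between 0 and 1, the untreated genotype count between 31 and 137 (79 with all arrays), the 6 h genotype count between 420 and 1004 (775), the 18 h genotype count between 40 and 427 (162) and the count for 6 h against 18 h between 87 and 284 (197). The single GLP-1R-/- call came without array 15. Array weights, which gave array 13 a weight of 0.084, called 284 genes in the interaction, 1243 in wild-type mice, 177 between untreated genotypes, 2293 and 1589 between genotypes at 6 h and 18 h, and 1512 for 6 h against 18 h. A fit to only the 4 groups called 12, 209, 41 and 417 genes in the interaction, in wild-type mice, between untreated genotypes and between genotypes at 6 h, and 664 in wild-type mice without array 13. Median centring called 72 and quantile normalization 64 genes in the interaction, 47 of the 48 each. The alternatives for genotype and time counts were chosen after seeing the data. No alternative turned the sign of the 4 genes given by identifier. The causes were not tested. The number of arrays limits precision, and a missed threshold does not show equal changes.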
